A study of Mus musculus with 46 samples.

Results

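Ribosome biogenesis genes were followed through the first 8 h after an ovulatory signal in cultured mouse ovarian follicles. The set holds 50 of the 25147 genes in the count table. Most were taken because their symbols begin with Utp, Rrp, Nop or Nol and a digit; Nol3, whose product is no ribosome factor, was left out. The others are 16 named factors: Bop1, Pes1, Ftsj3, Nob1, Nolc1, Ncl, Npm1, Fbl, Dkc1, Nip7, Wdr12, Wdr43, Polr1a, Polr1b, Rrs1 and Ltv1. Genes without a count in all 6 follicles of batch 2 at 1 h and 4 h were to be left out, and none of the 50 met that condition. Of the 50, 48 had enough counts to be tested. Nol4 had a single count in each of 3 libraries and 0 elsewhere, and Utp14b, a retrogene copy of Utp14a, had at most 18 counts in a library. By role, 2 of the genes encode subunits of RNA polymerase I, 3 encode core proteins of box C/D small nucleolar ribonucleoproteins (snoRNPs) and 2 those of box H/ACA snoRNPs. A further 3 encode nucleolar chaperones and scaffolds, 23 factors of the small subunit and 15 factors of the large subunit. The roles of Nol4 and Nol4l in ribosome assembly are not established.

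Ribosomes are assembled in the nucleolus, where RNA polymerase I transcribes a long precursor that is modified, cut and folded with ribosomal proteins. Box C/D particles guide methylation and box H/ACA particles guide pseudouridylation of that precursor. The small subunit processome frees the small subunit RNA, and a separate line of factors matures the large subunit. Most of these factors act on the precursors and are not part of the finished ribosome, and their genes are commonly induced together when cells are stimulated to grow.

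Follicles of CD-1 mice, an outbred stock, were cultured singly in alginate for 8 days and then given medium with 1.5 IU/ml human chorionic gonadotropin (hCG), which binds the receptor for luteinizing hormone. The same medium held 10 ng/ml epidermal growth factor, 10 mIU/ml recombinant follicle-stimulating hormone and fetal bovine serum. Each of the 46 libraries holds the polyadenylated RNA of 1 follicle, and the labels name no allele, transgene or follicle left without hCG for the same time. In batch 2 there were 9 follicles before hCG (0 h), with 3 more at each of 1 h and 4 h. In batch 1 there were 10 at 1 h, another 10 at 4 h and 11 at 8 h, and its 1 h and 8 h follicles were on plate 1 while its 4 h follicles were on plate 2. The labels do not tie a follicle to an animal, and the p-values cover only the variation among follicles, some of which may share a mouse.

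The total adjusted count per library ranged from 241442 to 5185044, and the 3 libraries of batch 2 at 1 h were shallow, at 379640 to 765600. The oocyte was barely represented. The summed level of 12 oocyte markers was between 2.81 and 167 CPM (counts scaled to a common library total) in every library, with Oosp1 at 0 in batch 2 at 1 h and Npm2 at 0 in batch 2 at 4 h. The median summed level of 8 granulosa cell markers was 41108 CPM at 0 h, and 26148 and 16638 CPM at 1 h and 4 h in batch 2. It was 31654, 29049 and 15070 CPM at 1 h, 4 h and 8 h in batch 1. A further granulosa marker, Amh, had no count in batch 2 after hCG. Markers of other cell types had lower medians at 4 h than at 1 h. The summed level of 8 theca and stroma markers had medians of 610 CPM at 1 h, 143 at 4 h and 92.4 at 8 h in batch 1, and of 384, 551 and 333 CPM at 0 h, 1 h and 4 h in batch 2. For 4 endothelial markers the batch 1 medians were 28.6, 6.42 and 10.1 CPM, and for 4 leukocyte markers 28.6, 4.25 and 6.77 CPM. The batch 2 medians were 6.04, 14.9 and 12.9 CPM for endothelium and 17.6, 29.6 and 13.8 CPM for leukocytes. The ranges overlapped, with single libraries up to 1353, 139 and 301 CPM for the 3 lists. Kdr and Tek were at 0 in batch 2 at 1 h, Gli1 and Adgre1 in batch 2 at 4 h, and Ptprc in batch 2 at 1 h and in batch 1 at 1 h and 4 h. In RNA from whole follicles, fewer cells of a type and less RNA per cell cannot be told apart.

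Short motifs were counted in the promoters. RefSeq (GRCm38.p6) promoter windows, from 250 bases before to 50 bases after the start, were found for 40 of the 50 genes. The E-box CACGTG reads the same on both strands and is the preferred site of the MYC family and related factors. It occurred in the windows of 10 of the 40 (25%), of 12.5% of 6539 tested genes with a window and of 8.09% of all 27025 genes with one. Among 108 further genes of the pathway with a window, 18 (16.7%) held it. The cyclic AMP response element TGACGTCA, which also reads the same on both strands, was in none of the 40 windows, in those of 5 of the 108 further pathway genes (4.63%) and in those of 3.85% of the tested genes. A match is a run of letters and not a bound site. The 3 tested genes with an E-box within the 120 bases before the start are Nol11 (chr11:107189382-107189501, minus strand), Nop2 (chr6:125131763-125131882, plus strand) and Utp18 (chr11:93885767-93885886, minus strand). Those 120 bases are shown with the E-box in capitals, its first base 43, 60 and 20 bases before the start. All 3 genes rose between 1 h and 4 h in batch 1 as described below, as did 43 of the 48 tested members and 26.9% of all genes. Nol11 was not called for that step in batch 2. A link between the motif and the rise was not tested.
Nol11: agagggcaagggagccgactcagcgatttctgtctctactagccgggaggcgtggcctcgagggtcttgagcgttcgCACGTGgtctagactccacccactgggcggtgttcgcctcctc
Nop2: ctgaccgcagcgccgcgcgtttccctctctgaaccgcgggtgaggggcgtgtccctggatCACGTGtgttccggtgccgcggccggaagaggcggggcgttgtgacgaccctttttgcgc
Utp18: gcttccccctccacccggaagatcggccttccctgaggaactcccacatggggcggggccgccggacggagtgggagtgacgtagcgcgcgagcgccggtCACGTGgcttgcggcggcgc

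The summed level of the 50 genes was low before and shortly after hCG, high at 4 h and most of the way back at 8 h. It was 2135 ± 206 CPM (SD, n = 9) at 0 h, and 2421 ± 397 CPM (n = 3) at 1 h and 6254 ± 34.0 CPM (n = 3) at 4 h in the same batch. In batch 1 it was 2495 ± 256 CPM (n = 10) at 1 h, 6107 ± 742 CPM (n = 10) at 4 h and 3079 ± 351 CPM (n = 11) at 8 h. Every follicle at 4 h, in either batch, lay above every follicle at 0 h, 1 h and 8 h. The lowest 4 h value was 5209.8 CPM and the highest of the others was 3972 CPM. At 8 h and 1 h in batch 1 the ranges met, from 2699 CPM upwards at 8 h and up to 2806 CPM at 1 h. Npm1 alone made up 38.0% to 41.7% of the sum at each time and Ncl 8.15% to 11.1%. Without these 2 abundant genes the mean was 1147 CPM at 0 h and 3036 CPM at 4 h in batch 2. In batch 1 it was 1253 CPM and 3022 CPM at 1 h and 4 h, and 1539.7 CPM at 8 h. As a share of all deposited counts of a library, the 50 genes held 0.160% ± 0.0113 (SD, n = 9) at 0 h, 0.232% ± 0.0476 (n = 3) at 1 h and 0.614% ± 0.0730 (n = 3) at 4 h in batch 2. In batch 1 the share was 0.234% ± 0.0285 (n = 10) at 1 h, 0.580% ± 0.0356 (n = 10) at 4 h and 0.313% ± 0.0440 (n = 11) at 8 h. Genes without a count in the 6 follicles of batch 2 after hCG held 22.6% to 46.2% of the counts at 0 h and were left out before CPM were scaled. Over the counts that remained, the 0 h share was 0.242% ± 0.0151 (n = 9).

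**Figure D1:**
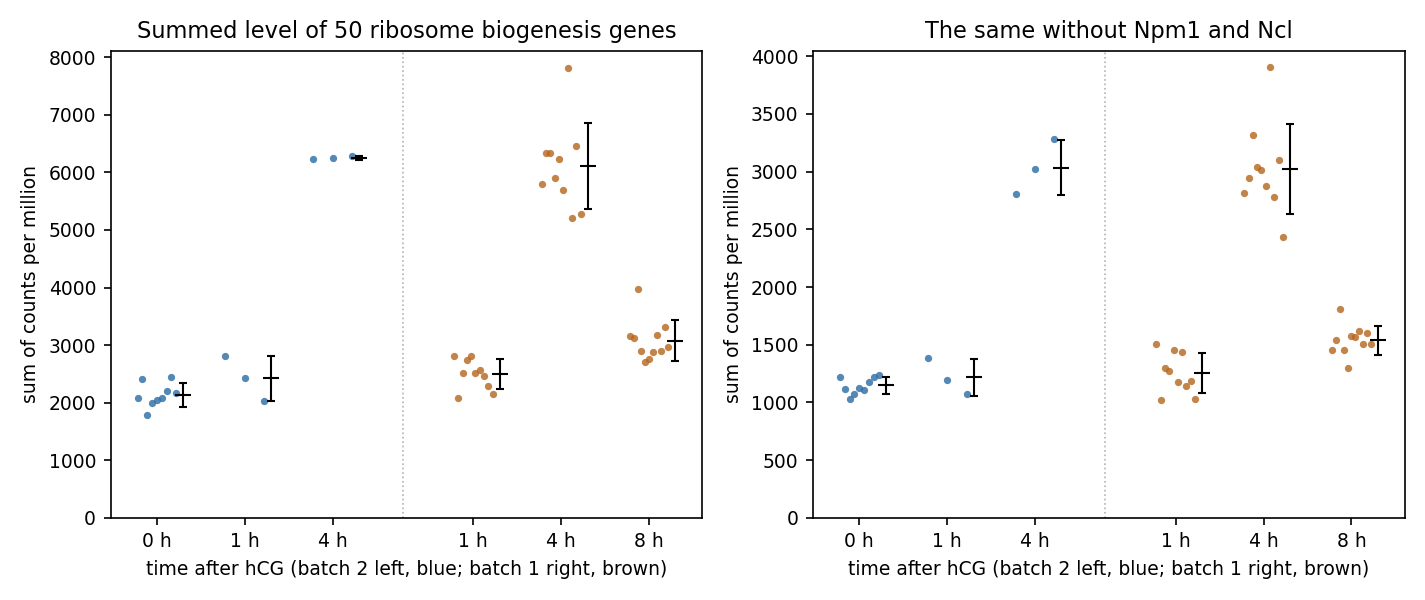
Summed level of the 50 ribosome biogenesis genes (left) and of the same genes without Npm1 and Ncl (right) in CPM, 1 point per follicle, by hours after hCG and batch, with the mean and SD beside the points. On the left the 13 follicles at 4 h lie between 5209.8 and 7811 CPM, above all follicles of the other times.

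Gene by gene, most members rose between 1 h and 4 h and fell between 4 h and 8 h. In batch 1, 43 of the 48 tested genes were higher at 4 h than at 1 h and none was lower, where 26.9% of all genes tested were higher and 25.1% lower. A gene was called when its adjusted p was under 0.05 in edgeR's quasi-likelihood test, with Benjamini-Hochberg adjustment over the 8835 genes. The members' median log2 fold change was 1.54, and that of all genes 0.01. In batch 2, with 3 follicles at each time, 26 were higher and 1, Nol7, was lower (13.8% and 10.2% of all genes), with a median of 1.34 against 0.04. Relative to 0 h in batch 2, 39 were higher at 4 h and 3 lower (21.6% and 24.2% of all genes), with a median of 1.32 against 0.03. At 8 h, 34 of the 48 were lower than at 4 h and none was higher (21.0% and 20.3% of all genes), with a median of -0.94 against 0.02. In batch 1 the time is tied to the plate, so plate and time cannot be told apart in the 2 steps to and from 4 h. The theca and stroma, endothelial and leukocyte marker sums given above had lower medians at 4 h than at 1 h in both batches, and their part in the members' change was not tested. In batch 2 the descriptions of 5 of the 9 libraries at 0 h, and of none at 1 h or 4 h, end in "_ds", whose meaning is not given. Without those 5, 32 members were higher at 4 h than at 0 h and 1 was lower (1581 and 2004 of the 9500 genes tested in that fit).

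For many members the follicles of 2 times did not overlap. In batch 1, 22 of the 48 had every 4 h follicle above every 1 h follicle (7.23% of all genes), and none had every one below (4.89%). Every 8 h follicle was below every 4 h follicle for 19 genes (4.99% of all genes), and above for none (3.24%). At 8 h against 1 h, all 8 h follicles were higher for 5 genes (Nip7, Nol6, Pes1, Rrp7a and Rrs1; 7.16% of all genes) and lower for 1, Nop58 (6.23%). In batch 2 the levels did not overlap for 31 genes that were higher at 4 h than at 1 h (18.0% of all genes) and 1 that was lower (13.5%). At 4 h against 0 h there were 29 higher (13.9%) and none lower (15.2%). The comparisons share libraries. In all 3 comparisons of 4 h with an earlier time, 26 of the 48 were called higher (54.2%), as were 7.54% of all genes. Of those 26, 21 were also called lower at 8 h (80.8%), against 61.7% of all genes with the same 3 calls.

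**Figure D2:**
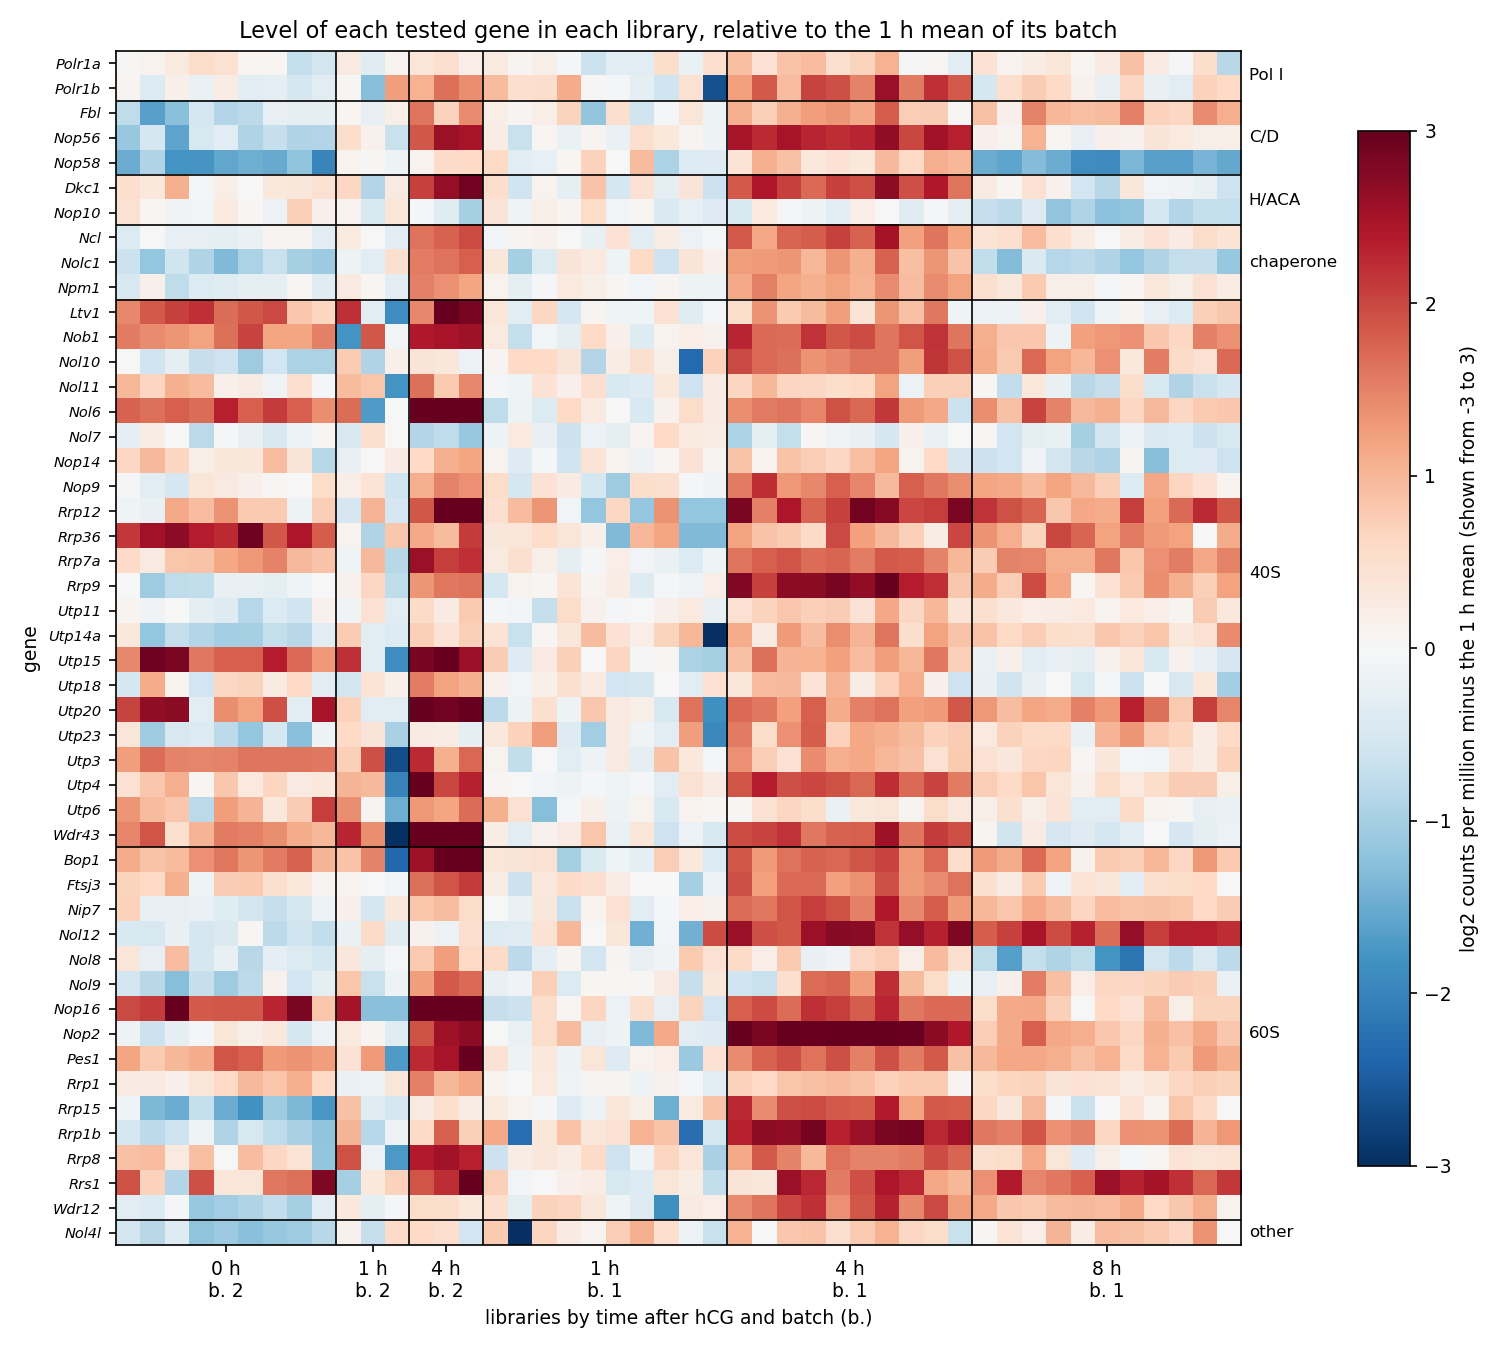
Level of the 48 tested genes (rows, grouped by role: RNA polymerase I, box C/D, box H/ACA, chaperones, small subunit or 40S, large subunit or 60S, other) in the 46 follicle libraries (columns), as log2 CPM minus the 1 h mean of the same batch, with the color scale ending at -3 and 3. The 13 columns at 4 h are red for most rows, while Nol7 and Nop10 are pale or blue there and Nop58 turns blue at 8 h.

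Of the core box C/D genes, 2 were among the 6 members called higher at 1 h than at 0 h (11.1% of all genes). All 3 were higher at 4 h than at 0 h, as were 39 of the 48 members and 21.6% of all genes. Nop58 (chr1:59684971-59719044, plus strand, GRCm38) and Nop56 (chr2:130274430-130279313, plus strand) are the paired scaffold proteins of the particle. Fibrillarin (Fbl, chr7:28169710-28179269, plus strand) is its methyltransferase. Nop58 ranged from 63.4 to 135 CPM (median 87.9) in the 9 follicles at 0 h. It stood at 275, 259 and 231 CPM in the 3 follicles of batch 2 at 1 h, with no overlap. The difference was 1.51 ± 0.24 (adjusted p = 2.75e-06) on the log2 scale (± SE), and the level remained high at 4 h in that batch, at 275, 382 and 387 CPM. In batch 1 Nop58 ranged from 117 to 439 CPM (median 209) at 1 h and 279 to 485 CPM (median 379.9) at 4 h. At 8 h it ranged from 60.4 to 90.5 CPM (median 76.6). Every 8 h follicle was thus below every 1 h and 4 h follicle, with log2 changes of -1.68 ± 0.17 (adjusted p = 7.26e-12) from 1 h and -2.32 ± 0.17 (adjusted p = 4.11e-15) from 4 h.

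Nop56 was highest at 4 h. It ranged from 18.3 to 45.5 CPM (median 30.2) at 0 h. At 1 h in batch 2 it was 83.3, 62.3 and 35.5 CPM, and it reached 211, 351 and 324 CPM at 4 h. Batch 1 went from 36.1 to 82.1 CPM (median 61.4) at 1 h to 241 to 378 CPM (median 295) at 4 h. By 8 h the level was back at 49.1 to 121 CPM (median 65.5). All 4 h follicles lay above all others in both batches. The log2 change was 3.18 ± 0.20 (adjusted p = 1.64e-17) from 0 h to 4 h and 2.35 ± 0.16 (adjusted p = 9.91e-17) from 1 h to 4 h in batch 1. At 8 h the level differed from 1 h by 0.22 ± 0.15 (adjusted p = 0.237), which did not pass the test. The rise at 1 h (0.92 ± 0.24, adjusted p = 0.00263) was lost when 1 h replicate 11, the deepest of the 3 libraries, was left out (0.59, adjusted p = 0.153).

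Fbl rose by 4 h, and no fall was detected at 8 h. At 0 h it ranged from 10.7 to 30.1 CPM (median 20.8). The batch 1 values were 16.0 to 60.8 CPM (median 42.0) at 1 h, 38.9 to 137 CPM (median 81.6) at 4 h and 42.4 to 111 CPM (median 75.0) at 8 h. The follicles at 4 h and 8 h overlapped throughout, with a difference of -0.07 ± 0.18 (adjusted p = 0.796), and those at 8 h remained above 1 h by 0.94 ± 0.20 (adjusted p = 0.000112). At 8 h relative to 1 h, Nop58 was lower, Nop56 was not called and Fbl was higher; differences between genes were not tested.

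Of the box H/ACA pair, Dkc1 rose from 1 h to 4 h, and Nop10 was not called for that step in either batch. Dyskerin (Dkc1, chrX:75095854-75109777, plus strand), the pseudouridine synthase, ranged from 18.8 to 42.6 CPM (median 24.8) at 0 h. In batch 2 it went from 30.9, 9.96 and 23.6 CPM at 1 h to 84.9, 128 and 154 CPM at 4 h. The batch 1 follicles held 15.5 to 45.7 CPM (median 23.5) at 1 h and 77.9 to 168 CPM (median 102) at 4 h. They held 13.4 to 34.5 CPM (median 23.3) at 8 h, so that the 4 h follicles were separate from both neighbors. Its log2 changes were 2.09 ± 0.20 (adjusted p = 3.05e-12) up to 4 h and -2.23 ± 0.18 (adjusted p = 9.86e-14) down to 8 h. Nop10 encodes a small protein bound to dyskerin. Its follicles ranged from 56.6 to 114 CPM (median 76.5) at 1 h, 56.0 to 94.1 CPM (median 71.7) at 4 h and 31.9 to 58.3 CPM (median 43.9) at 8 h in batch 1. It was lower at 8 h than at 4 h, with a log2 change of -0.74 ± 0.14 (adjusted p = 2.85e-05). In batch 2 it was lower at 4 h than at 0 h, at -0.59 ± 0.22 (adjusted p = 0.0224), a call that was lost under 7 of 15 alternatives.

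All 3 nucleolar chaperones and scaffolds rose from 1 h to 4 h in both batches and fell to 8 h, as most members did. Of all genes, 26.9% rose in batch 1 and 13.8% in batch 2, and 21.0% fell to 8 h. Nucleophosmin (Npm1, chr11:33152287-33163206, minus strand), a histone and ribosome chaperone, had the highest level per length of the members. It had a mean of 1234 TPM (counts scaled for transcript length and library total) at 1 h and 3076 TPM at 4 h in batch 1. The values for nucleolin (Ncl, chr1:86344719-86359400, minus strand), an RNA-binding protein of the nucleolus, were 81.6 and 287 TPM. Npm1 ranged from 586 to 1092 CPM (median 767) at 0 h. It was 1184, 1031 and 789 CPM at 1 h and 2803, 2545 and 2246 CPM at 4 h in batch 2. In batch 1 Npm1 went from 850.3 to 1274 CPM (median 1029.5) at 1 h to 1962 to 2951 CPM (median 2369.6) at 4 h. At 8 h it was down to 990.5 to 1782 CPM (median 1198). No 4 h follicle overlapped with 1 h or 8 h, and the log2 changes were 1.21 ± 0.12 (adjusted p = 2.59e-12) and -0.92 ± 0.11 (adjusted p = 3.21e-09). Of the 50-base stretches of the longest Npm1 transcript, 40.9% also occur in other genes, so reads of its processed copies could have been placed in either.

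Ncl was 243, 199 and 159.6 CPM at 1 h and 618, 677 and 766 CPM at 4 h in batch 2. In batch 1 Ncl ranged from 158 to 271 CPM (median 198) at 1 h and 451 to 1135 CPM (median 681) at 4 h. It ranged from 201 to 382 CPM (median 269) at 8 h. It rose by 1.73 ± 0.14 (adjusted p = 1.9e-14) and then fell by 1.33 ± 0.13 (adjusted p = 2.4e-11) on the log2 scale, with no overlap at either step. Nolc1, a phosphoprotein that binds both kinds of snoRNP, was already higher at 1 h. It ranged from 14.2 to 24.4 CPM (median 18.8) at 0 h. The batch 2 values were 33.6, 29.9 and 53.2 CPM at 1 h and 111, 119 and 135 CPM at 4 h, without overlap between successive times. The change at 1 h was 0.97 ± 0.25 (adjusted p = 0.00285), and leaving out 1 h replicate 13 gave 0.74 (adjusted p = 0.0617). In batch 1 Nolc1 went from 21.7 to 67.8 CPM (median 52.2) at 1 h to 81.8 to 154 CPM (median 109) at 4 h. At 8 h it held 17.1 to 32.2 CPM (median 24.1) and was below its 1 h level by 0.95 ± 0.16 (adjusted p = 1.57e-06).

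**Figure D3:**
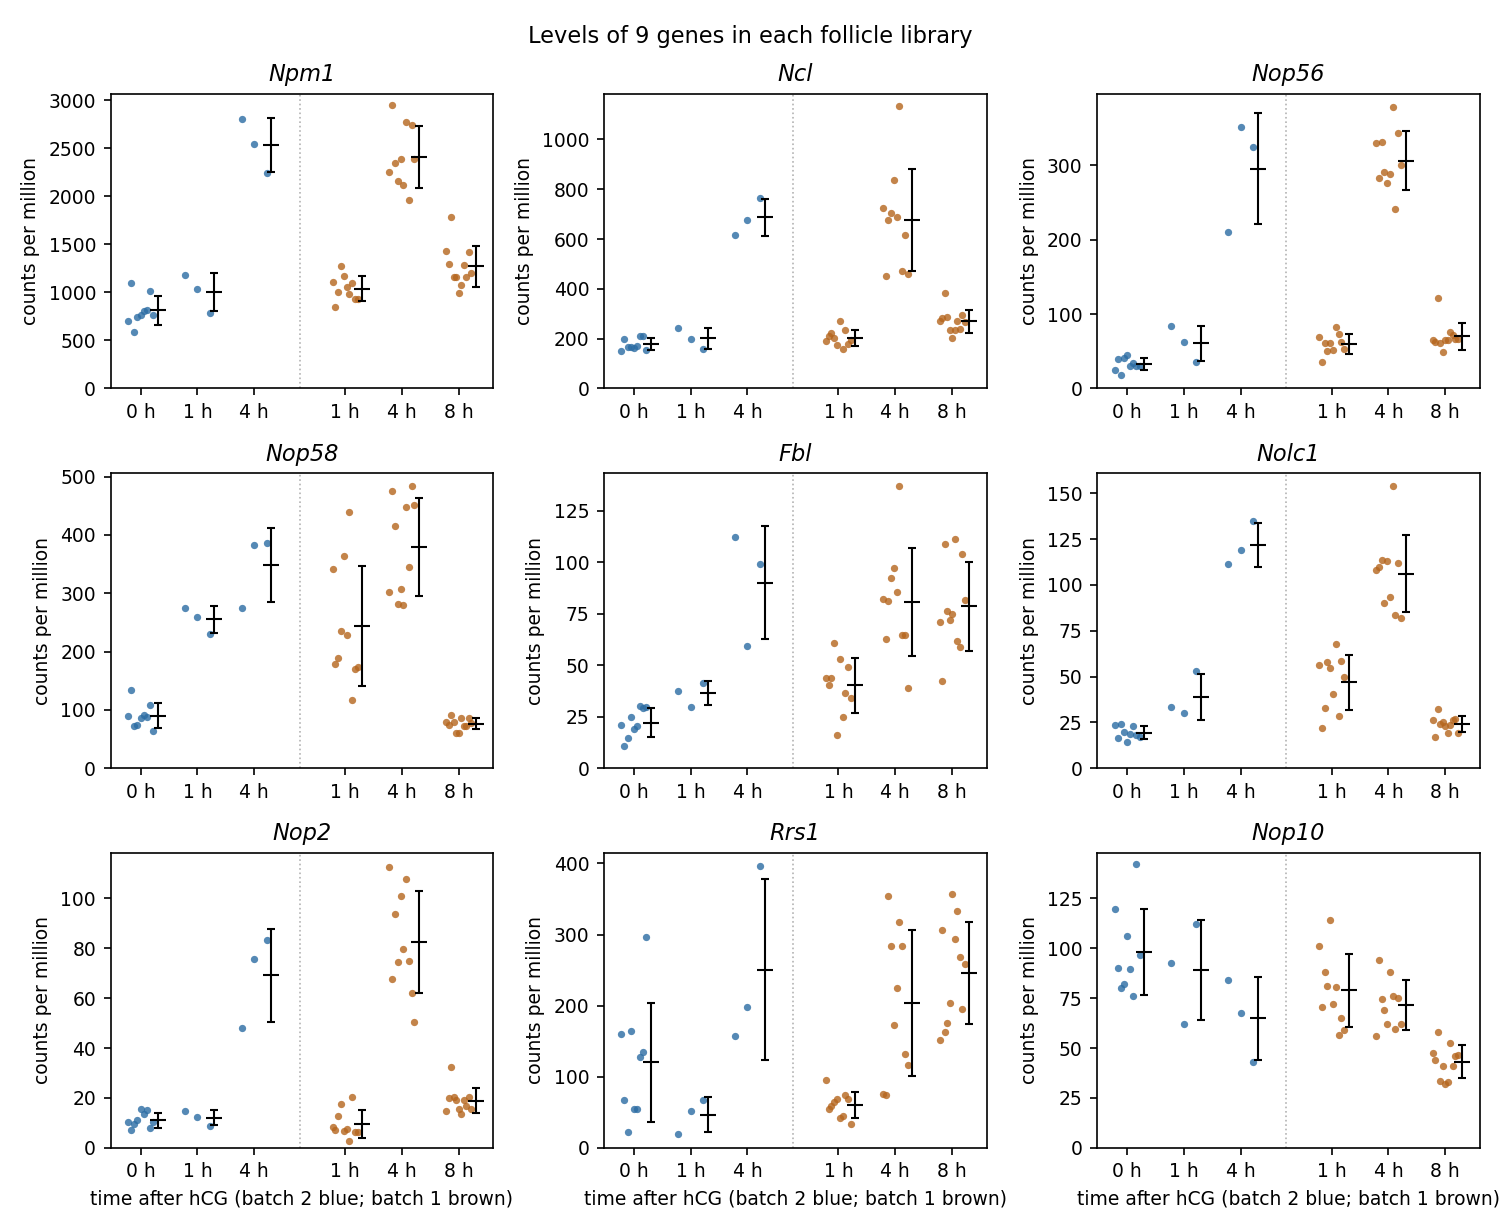
Levels of 9 genes in CPM, 1 point per follicle, with mean and SD, by hours after hCG for batch 2 (blue) and batch 1 (brown), each panel with its own axis from 0. Npm1, Ncl, Nop56 and Nop2 peak at 4 h with no overlap, and Nop58 and Nolc1 end lowest at 8 h within batch 1. Fbl and Rrs1 overlap at 4 h and 8 h, and Nop10 has its lowest mean at 8 h.

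Both subunits of RNA polymerase I rose between 1 h and 4 h in batch 1 (26.9% of all genes), and neither was called for that step in batch 2. The batch 2 differences were 0.33 ± 0.38 (adjusted p = 0.588) for Polr1a and 1.21 ± 0.52 (adjusted p = 0.0792) for Polr1b. Polr1b, the second largest subunit, ranged from 0 to 15.9 CPM (median 8.31) at 1 h, 13.9 to 47.3 CPM (median 27.4) at 4 h and 4.27 to 12.3 CPM (median 10.0) at 8 h in batch 1. The log2 changes were 1.65 ± 0.27 (adjusted p = 1.23e-06) and -1.70 ± 0.23 (adjusted p = 5.43e-08). Polr1a, the largest and catalytic subunit, ranged from 9.14 to 22.2 CPM (median 15.2) at 1 h to 11.7 to 32.2 CPM (median 23.2) at 4 h, a rise of 0.60 ± 0.20 (adjusted p = 0.0108) with broad overlap. Relative to 0 h, Polr1b was higher at 4 h (1.70 ± 0.33, adjusted p = 3.6e-05) and Polr1a was not called (0.30 ± 0.26, adjusted p = 0.362).

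Of the 22 tested small subunit factors, 20 were higher at 4 h than at 1 h in batch 1 (26.9% of all genes) and 12 in batch 2 (13.8% of all genes). At 8 h, 15 were lower than at 4 h (21.0% of all genes). Wdr43, a processome protein that also supports rRNA transcription, stood at 80.6, 42.4 and 0 CPM at 1 h and 154, 191 and 192 CPM at 4 h in batch 2. The part of the adjustment between batches in the value of 0 was not tested. In batch 1 Wdr43 ranged from 28.3 to 79.9 CPM (median 43.7), 134 to 261 CPM (median 173) and 28.7 to 52.2 CPM (median 34.3) at 1 h, 4 h and 8 h. The 4 h follicles were apart from the rest. The fall to 8 h of 2.26 ± 0.21 (adjusted p = 4.07e-12) on the log2 scale was among the 3 largest of the members. Rrp9, the protein specific to the U3 snoRNP, went from 7.03 to 14.5 CPM (median 11.3) at 1 h to 19.5 to 95.1 CPM (median 74.9) at 4 h in batch 1, a rise of 2.65 ± 0.23 (adjusted p = 1.02e-13). Its change in batch 2 was 1.44 ± 0.40 (adjusted p = 0.00663).

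Nob1, the endonuclease that makes the final cut of the small subunit RNA, had 0, 14.9 and 2.96 CPM at 1 h and 22.4, 23.4 and 24.7 CPM at 4 h in batch 2. It rose by 2.13 ± 0.26 (adjusted p = 1.45e-09) in batch 1. Ltv1, a late assembly factor, ranged from 8.69 to 20.7 CPM (median 12.1), 11.7 to 41.0 CPM (median 25.4) and 8.18 to 23.6 CPM (median 11.5) at 1 h, 4 h and 8 h in batch 1. These overlapped at each step, with changes of 1.00 ± 0.27 (adjusted p = 0.002) and -1.06 ± 0.24 (adjusted p = 0.000347). Its difference between 4 h and 0 h (0.95 ± 0.35, adjusted p = 0.0217) was lost under 5 of 14 alternatives and reversed under 1, the replicate block described below. Among these, it was 0.53 (adjusted p = 0.332) without 4 h replicate 12 and 0.83 (adjusted p = 0.0992) without 4 h replicate 13. Utp14a, a processome protein, rose by 0.83 ± 0.24 (adjusted p = 0.00317) in batch 1 and was not called at 8 h against 4 h (-0.37 ± 0.21, adjusted p = 0.151). The follicles ranged from 7.03 to 20.3 CPM (median 13.4) at 1 h, 7.79 to 60.4 CPM (median 39.5) at 4 h and 20.6 to 56.8 CPM (median 26.8) at 8 h for Nol6, a scaffold of the processome. It rose by 1.63 ± 0.24 (adjusted p = 1.96e-07) and was still above 1 h at 8 h (1.20 ± 0.24, adjusted p = 4.57e-05), although its fall from 4 h was not called (-0.43 ± 0.20, adjusted p = 0.0758).

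A few small subunit genes were close to the floor of detection in batch 2 at 1 h. Rrp12, needed for export of subunits, had 1 count over the 3 libraries at 1 h and 59 at 4 h, a ratio at equal depth of 21.8 (95% counting interval 3.76 to 875). Utp20, a large processome protein, had 1 and 53 counts, a ratio of 19.6 (95% counting interval 3.36 to 788). In batch 1, with more libraries, Rrp12 rose by 2.24 ± 0.41 (adjusted p = 1.17e-05) and Utp20 by 1.53 ± 0.41 (adjusted p = 0.00167) on the log2 scale. Rrp36, an early cleavage factor, went the other way before 1 h. It ranged from 7.25 to 17.2 CPM (median 11.3) at 0 h. At 1 h in batch 2 it had 2 counts in all and was lower by a factor of 8.53 (95% counting interval 2.34 to 70.8), with an adjusted p of 0.00203. It was still lower at 4 h than at 0 h (-1.06 ± 0.44, adjusted p = 0.0455), a call lost under 9 of 14 alternatives, among them without 4 h replicate 11 (-0.88, adjusted p = 0.186) and without 4 h replicate 12 (-0.92, adjusted p = 0.149). In batch 1 Rrp36 rose from 1 h to 4 h (0.97 ± 0.39, adjusted p = 0.0312), a call lost with DESeq2 (0.92, adjusted p = 0.0562). Nol7 was the only member called lower in both comparisons of 4 h in batch 2, by 0.80 ± 0.24 (adjusted p = 0.0063) from 0 h and 0.99 ± 0.32 (adjusted p = 0.018) from 1 h. In batch 1 its difference of -0.30 ± 0.17 (adjusted p = 0.139) did not pass the test, and each of the batch 2 calls was lost under 4 alternatives. Of the exonic bases of Nol7, 16.5% lie under exons of Ranbp9 on the other strand, and these libraries do not keep the strand.

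Of the 15 large subunit factors, 14 were higher at 4 h than at 1 h in batch 1 and 8 in batch 2, against 26.9% and 13.8% of all genes. At 8 h, 11 were lower than at 4 h, against 21.0% of all genes. Nop2, the rRNA cytosine methyltransferase whose promoter is printed above, had the largest change of all members in batch 1. It ranged from 7.11 to 15.4 CPM (median 10.4) at 0 h. In batch 2 the values were 14.8, 12.5 and 8.87 CPM at 1 h and 48.2, 75.6 and 83.4 CPM at 4 h. Those of batch 1 went from 2.61 to 20.2 CPM (median 7.33) at 1 h to 50.6 to 113 CPM (median 77.3) at 4 h. They ended at 13.7 to 32.2 CPM (median 19.2) at 8 h. The 4 h follicles were separate at both steps, with changes of 3.09 ± 0.22 (adjusted p = 2.66e-16) and -2.13 ± 0.18 (adjusted p = 1.56e-13). The 8 h level was above 1 h by 0.95 ± 0.22 (adjusted p = 0.000404). For the other 2 promoters shown, Nol11 rose by 0.68 ± 0.22 (adjusted p = 0.00978) and Utp18 by 0.64 ± 0.21 (adjusted p = 0.011) in batch 1. Both rises were below the members' median of 1.54.

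Pes1, Bop1 and Wdr12 encode the 3 proteins of the PeBoW complex, which is required for processing of the large subunit RNA. All 3 rose to 4 h and fell to 8 h in batch 1 (26.9% and 21.0% of all genes). Pes1 ranged from 9.78 to 31.0 CPM (median 25.5) at 1 h, 42.8 to 91.1 CPM (median 76.8) at 4 h and 34.3 to 56.8 CPM (median 48.6) at 8 h. This was a rise of 1.67 ± 0.18 (adjusted p = 9.11e-11) and a fall of 0.69 ± 0.16 (adjusted p = 0.000353). Bop1 rose by 1.64 ± 0.22 (adjusted p = 2.41e-08) and Wdr12 by 1.75 ± 0.20 (adjusted p = 6.17e-10). Both were lower at 8 h than at 4 h (-0.66 ± 0.18 (adjusted p = 0.00337) and -0.99 ± 0.17 (adjusted p = 5.56e-06)). The fall of Bop1 was lost under 2 of 11 alternatives, limma on log2(TPM + 1) (adjusted p = 0.106) and on log2(TPM + 0.1) (adjusted p = 0.334). The fall of Pes1 was lost under 1 of 11, limma on log2(TPM + 0.1) (adjusted p = 0.0539), and that of Wdr12 under none. All 3 remained above their 1 h level at 8 h (26.1% of all genes), by 0.98, 0.98 and 0.76 on the log2 scale. The adjusted p were 9.61e-06, 0.000228 and 0.00181 in edgeR's test. In batch 2 Pes1 was 17.5, 32.4 and 2.96 CPM at 1 h and 64.5, 76.3 and 109 CPM at 4 h, and Bop1 was 10.8, 17.4 and 0 CPM and 37.4, 56.4 and 55.0 CPM. Wdr12 stood at 22.8, 14.9 and 17.7 CPM and then 27.2, 26.8 and 22.9 CPM, a difference of 0.43 ± 0.37 (adjusted p = 0.434) that did not pass the test.

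Ftsj3, an rRNA methyltransferase, was 13.4, 12.5 and 11.8 CPM at 1 h and 42.1, 50.2 and 57.7 CPM at 4 h in batch 2. It rose by 1.52 ± 0.17 (adjusted p = 3.3e-10) in batch 1 and fell by 1.26 ± 0.15 (adjusted p = 2.35e-09) to 8 h, without overlap at either step. Nip7, which binds the large subunit precursor, rose by 1.84 ± 0.17 (adjusted p = 6.57e-13) in batch 1 and was not called in batch 2 (0.76 ± 0.30, adjusted p = 0.0584). Rrs1, which helps to dock the ribonucleoprotein of the smallest rRNA, varied widely between follicles before hCG, ranging from 22.1 to 297 CPM (median 128) at 0 h. Rrs1 then went from 34.1 to 95.6 CPM (median 61.9) at 1 h to 74.5 to 354 CPM (median 199) at 4 h and 152 to 356 CPM (median 258) at 8 h in batch 1. Every 8 h follicle was above every 1 h follicle (2.02 ± 0.32, adjusted p = 6.28e-07), while 4 h and 8 h overlapped. Nol8 alone among the large subunit genes was not called higher at 4 h in batch 1 (0.49 ± 0.25, adjusted p = 0.097), and it was lower at 8 h than at 1 h (-1.11 ± 0.27, adjusted p = 0.000505).

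At 1 h after hCG the members had no common direction. In batch 2, 6 of 48 were higher than at 0 h and 5 were lower, where 11.1% of all genes were higher and 16.9% lower. The 6 were Nol4l, Nolc1, Nop56, Nop58, Rrp15 and Rrp1b, and the 5 were Pes1, Rrp1, Rrp36, Rrp7a and Rrs1. The median log2 fold change was 0.08, and that of all genes -0.13. Nop58 and Nolc1 had every 1 h follicle above every 0 h follicle, and Rrp36 had every one below (8.47% and 10.3% of all genes). Rrp15, a large subunit factor, had the largest fitted rise, at 1.61 ± 0.39 (adjusted p = 0.00166). Its 1 h values were 25.5, 9.96 and 8.87 CPM, of which 1 lay far above the others. Rrp1b stood at 21.5, 4.98 and 8.87 CPM, again with 1 high library, and changed by 1.19 ± 0.43 (adjusted p = 0.0314). Without that library, 1 h replicate 11, only Nolc1 and Nop58 were higher at 1 h, 2 of the 6 (621 of the 8857 genes tested in that fit). The changes were then 0.83 for Rrp15 (adjusted p = 0.342) and 0.24 for Rrp1b (adjusted p = 0.842). Rrs1 and Pes1 were lower at 1 h, by 1.42 ± 0.54 (adjusted p = 0.0422) and 0.90 ± 0.32 (adjusted p = 0.0276). The call of Rrs1 was lost without 1 h replicate 11 (-0.99, adjusted p = 0.258) and without replicate 12 (-1.54, adjusted p = 0.081). That of Pes1 was lost without replicate 11 (-0.88, adjusted p = 0.112) and without replicate 13 (-0.49, adjusted p = 0.271). Over all alternatives run, the 1 h call was lost under 8 of 15 for Rrs1, 6 of 15 for Pes1 and 8 of 14 for Rrp1b. It was lost under 3 of 15 for Nop56, 2 of 15 for Nolc1 and 1 of 15 for Nop58. For Rrp15 it was lost under 2 of 14 and for Rrp36 under 1 of 14.

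The calls after 4 h in batch 1 followed several courses. Of the 43 genes that were higher at 4 h than at 1 h, 32 were lower again at 8 h (74.4%), against 44.6% of all genes that were higher at 4 h. Both calls use the same 4 h libraries. Among those 32, 16 were still higher at 8 h than at 1 h (among them Nop2, Pes1 and Bop1), 13 were not called (among them Nop56, Dkc1, Wdr43, Polr1b and Ftsj3) and 3 were lower than at 1 h (Nolc1, Nop14 and Nop58). The 16 also hold Npm1, whose call at 8 h against 1 h (0.29 ± 0.11, adjusted p = 0.0284) was lost under 5 of 11 alternatives, and Ncl, whose call was lost under 1. The other 11 were not called lower at 8 h, and 7 of these were higher at 8 h than at 1 h: Fbl, Nol12, Nol6, Rrp1, Rrp36, Rrs1 and Utp20. In all, 23 members were higher at 8 h than at 1 h and 6 lower (26.1% and 23.2% of all genes), with a median of 0.38 against 0.05. The granulosa marker sum at 8 h was also the lowest of the groups, and its part in these differences was not tested.

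**Figure D4:**
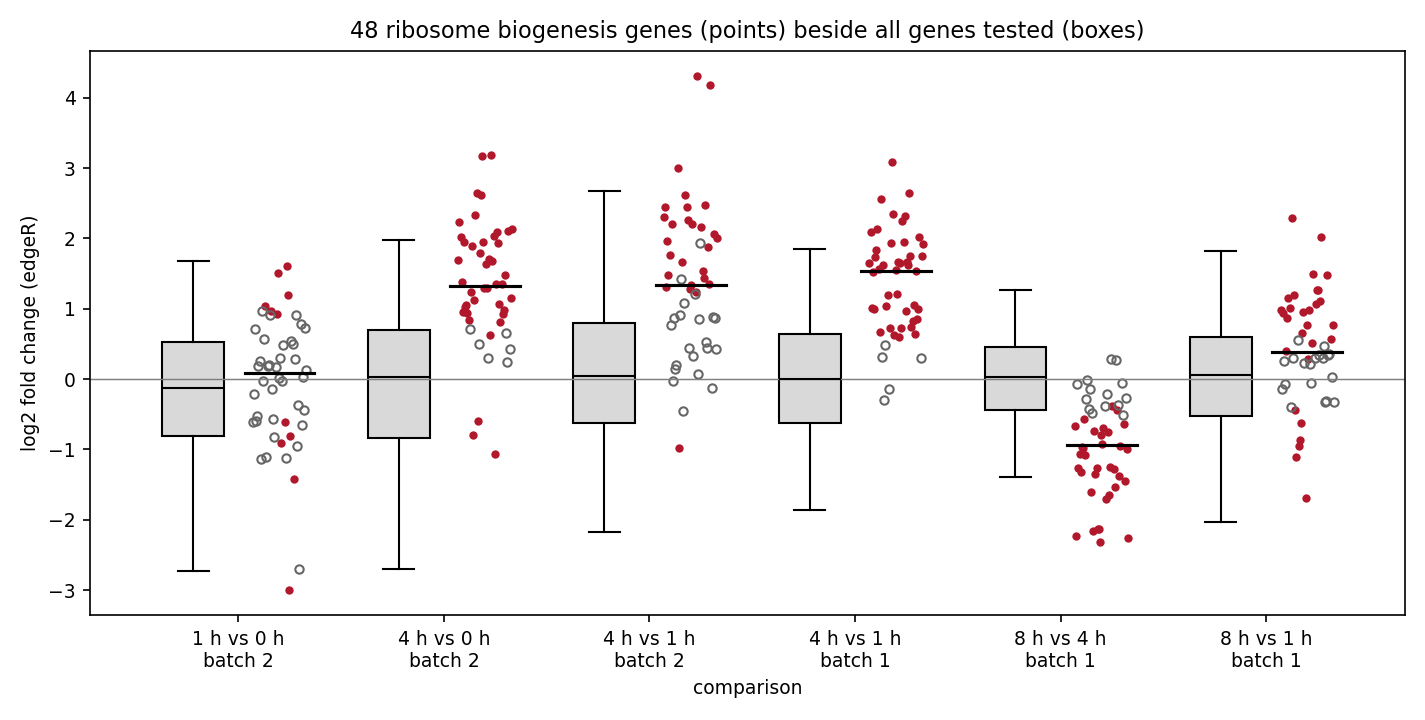
Log2 fold changes of the 48 tested genes (points, filled red where the adjusted p was under 0.05, open otherwise, line at the median) in 6 comparisons, beside boxes for all 8835 genes (median and quartiles, whiskers at the 5th and 95th percentiles). The medians of the points are 1.32, 1.34 and 1.54 in the 3 comparisons of 4 h with an earlier time and -0.94 at 8 h against 4 h, while the medians of all genes lie between -0.13 and 0.05.

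No follicles at 8 h and 0 h share a batch, so that difference rests on a fit with terms for time and batch. That fit takes the difference between batches to be the same at each time, which cannot be checked at 0 h or 8 h. In it, 16 members were higher at 8 h than at 0 h and 3 were lower (21.6% and 23.9% of all genes), with a median of 0.53 against -0.03. The authors' deposited table sets each later time against 0 h. At an unadjusted p under 0.05, 11 of the 50 members in the authors' deposited table were higher and 9 lower at 1 h (11.9% and 21.1% of the 19925 genes listed). At 4 h the authors' deposited table has 41 higher and 3 lower (16.3% and 26.1%), and at 8 h 27 higher and 9 lower (17.2% and 24.6%). For Fbl the authors' deposited table lists a fold of 3.36 at 8 h, and for Nop58 a fold of -1.25, which is 1.25 times lower.

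The step from 1 h to 4 h can be compared between batches. Of the 48 members, 46 had the same sign in both, where 71.0% of all genes did. Across members the log2 fold changes had a Pearson r of 0.53 and a Spearman rho of 0.51. Over all genes tested the Pearson r was 0.57, so the members' r was not above that of genes in general. These are given as a description, since the members of a batch share libraries and depth. The counts of both batches had also been adjusted together before deposit, and the part of that adjustment in the likeness of the steps was not tested. A test of the difference between the batches called 2 members, both with a larger rise in batch 1 (2.09% of all genes were called in that direction and 3.49% in the other). Nol12, an RNA-binding nucleolar protein, was 6.72, 12.5 and 5.91 CPM at 1 h and 8.83, 6.88 and 11.9 CPM at 4 h in batch 2, and it ranged from 0 to 12.4 CPM (median 2.15) and then 11.5 to 23.4 CPM (median 19.8) in batch 1. The step was larger in batch 1 by 2.42 ± 0.60 (adjusted p = 0.00945). For Rrp15 the difference was 1.87 ± 0.52 (adjusted p = 0.0236), and its batch 2 step of 0.08 ± 0.45 (adjusted p = 0.972) included the high 1 h library described above. Without that library, 1 h replicate 11, the difference was 1.08 (adjusted p = 0.383).

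**Figure D5:**
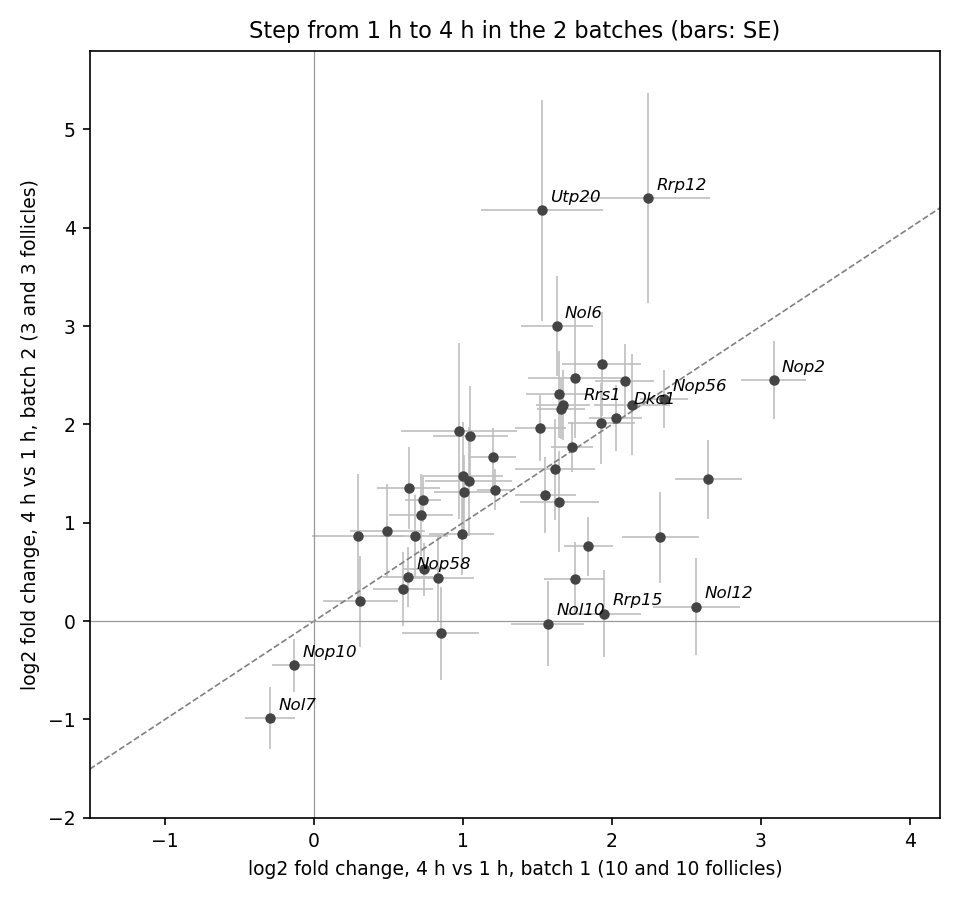
Log2 fold change of each tested gene from 1 h to 4 h in batch 1 (horizontal, 10 and 10 follicles) and batch 2 (vertical, 3 and 3 follicles), with bars for the SE and a dashed line of equality. All but 2 points lie where both changes have the same sign. Nol12 and Rrp15 lie to the right near 0 on the vertical axis, and Rrp12 and Utp20, with 1 count each in batch 2 at 1 h, have the longest bars.

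The wider pathway list was followed in the same comparisons. A list of 132 further ribosome biogenesis genes had 123 in the count table and 119 tested. In batch 1, 91 of the 119 (76.5%) were higher at 4 h than at 1 h, against 26.9% of all genes, and 2 were lower, with a median of 1.11. At 8 h, 78 (65.5%, against 21.0% of all genes) were lower than at 4 h and none was higher, with a median of -0.82. In batch 2, 61 (51.3%, against 13.8% of all genes) were higher and 1 lower at 4 h against 1 h. Relative to 0 h, 77 (64.7%, against 21.6%) were higher and 5 lower at 4 h. At 1 h against 0 h, 12 were higher (10.1%) and 21 lower (17.6%), close to the 11.1% and 16.9% of all genes. Their summed level was 2604 ± 227 CPM (SD, n = 9) at 0 h, 5313 ± 190.5 CPM (n = 3) at 4 h in batch 2. In batch 1 it was 2604 ± 225 CPM (n = 10), 5397 ± 524 CPM (n = 10) and 3104 ± 257 CPM (n = 11) at 1 h, 4 h and 8 h. By subgroup, 40 of 47 further large subunit genes, 31 of 36 small subunit genes, 8 of 12 genes of RNA polymerase I and its factors, 7 of 10 snoRNP partner and assembly genes and 5 of 14 RNA exosome genes were higher at 4 h than at 1 h in batch 1. Of the exosome genes, 3 of 14 were lower at 8 h than at 4 h (21.4%, against 21.0% of all genes). Of these genes 4 were higher and 1 was lower at 4 h than at 0 h, with a median of 0.08. The exosome, which trims and degrades precursors, also had the 2 genes that were lower, the cofactors Zcchc7 (-1.42 ± 0.30, adjusted p = 0.000111) and C1d (-1.22 ± 0.35, adjusted p = 0.00284).

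Among these further genes the largest rise at 1 h was that of Gnl3 (nucleostemin, a nucleolar GTPase), at 1.75 ± 0.25 (adjusted p = 4.69e-07), followed by Taf1d, a subunit of the selectivity factor of RNA polymerase I, at 1.50 ± 0.30 (adjusted p = 0.000133). Rcl1, a processome protein, had the largest rise at 4 h, at 3.17 ± 0.28 (adjusted p = 5.78e-13) from 0 h and 2.89 ± 0.25 (adjusted p = 2.89e-13) from 1 h in batch 1, and fell by 2.33 ± 0.21 (adjusted p = 7.95e-13) to 8 h. Mybbp1a, a Myb-binding nucleolar protein, rose by 2.80 ± 0.24 (adjusted p = 1.88e-13) from 0 h. Heatr1, a processome protein that promotes rRNA transcription, rose by 2.62 ± 0.33 (adjusted p = 6.81e-09) from 1 h in batch 1. Gnl3 fell by 2.13 ± 0.15 (adjusted p = 1.63e-15) between 4 h and 8 h. Eif6, which keeps the large subunit from joining too early, was highest at 8 h relative to 1 h (2.04 ± 0.14, adjusted p = 1.06e-16), followed by Wdr46 (1.99 ± 0.30, adjusted p = 2.24e-07). Zcchc7 (-1.68 ± 0.29, adjusted p = 4.88e-06) and Dimt1, an rRNA methyltransferase (-1.65 ± 0.27, adjusted p = 1.69e-06), were lowest. At 4 h against 0 h in batch 2 the largest falls were those of Taf1b (-2.34 ± 0.59, adjusted p = 0.00106) and Znrd1 (-1.81 ± 0.50, adjusted p = 0.00288), both of the RNA polymerase I machinery. Nsa2 was the only one of these genes called lower at 4 h against 1 h in batch 2 (-1.07 ± 0.37, adjusted p = 0.0302). Wbscr22 alone among these genes was called for a larger step from 1 h to 4 h in batch 1 than in batch 2 (1.71 ± 0.51, adjusted p = 0.0375).

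Some of the further genes had no counts in batch 2 at 1 h, so that their fold changes are bounds. Exosc8, an exosome subunit, had 466 counts at 0 h, 0 at 1 h and 51 at 4 h in batch 2. With the floor at 3 counts over the group, it was at least 10.4-fold lower at 1 h than at 0 h and at least 6.28-fold higher at 4 h than at 1 h. Taf1c fell from 159 counts before hCG to 0 an hour later, which makes its level at least 3.55-fold lower. Urb1 went from 0 to 72 counts between 1 h and 4 h, a level at least 8.87-fold higher. Urb1 and Exosc8 were also called for a smaller step in batch 1 than in batch 2, with adjusted p of 0.0114 and 0.0491. The counts had been adjusted between batches before deposit, and the part of that adjustment in these zeros was not tested. The same holds for the zeros of members in batch 2 at 1 h, among them Wdr43, Bop1 and Nob1.

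The 50 genes lie on 18 chromosomes (GENCODE M21, GRCm38). For 5 of them over 10% of the exonic bases lie under exons on the opposite strand: Nop9 (29.9%, Cideb), Nol7, Rrp7a (12.5%, Serhl), Utp14a (11.5%) and Utp23 (11.5%). For Npm1, Pes1 (21%) and Nop56 (20%) over 10% of the 50-base stretches of the longest transcript occur in other genes, so their levels are less certain than those of the other members.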

How the data were processed

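Libraries were made from single follicles with Smart-Seq2 and Nextera XT, per the labels' protocols, and are not stranded. Reads were aligned with HISAT2 to GRCm38 and compared with DESeq2 in Partek, per the submitters' processing notes, which give no versions. The authors deposited whole-number counts, adjusted between batches with ComBat-seq according to the name of the table (settings not given in the sources used here), TPM computed from them, and a table of signed fold changes and p-values against 0 h. In the count table, and likewise in the TPM table, 10 columns belong to no sample in the labels, and these were left aside. The adjusted total count per library was 241442 to 5185044, which limits what can be detected for genes with few counts, and counting intervals cover counting error only.

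Genes with 0 counts in all 6 batch 2 libraries after hCG (9423 genes) were left out before scaling. Of these, 4201 had a count elsewhere, and they held 22.6% to 46.2% of the counts of the 0 h libraries and at most 0.0667% of those of batch 1. The model was fitted to the counts of all 46 libraries, with 1 mean for each time in each batch (edgeR 4.0.16 under R 4.3.3, TMM factors, filterByExpr on the time groups, quasi-likelihood F test). The p-values of the 8835 genes tested were adjusted by the Benjamini-Hochberg method. The biological coefficient of variation was 33.4%. CPM used the TMM-scaled totals, and the SE of a log2 fold change was taken as the absolute change over the root of its F value. Ratios of groups with 1 to 3 counts are given at equal depth with exact binomial intervals. No libraries had identical counts. The script was tested on simulated data. Comparisons were made within a batch, and the difference of the step from 1 h to 4 h between the batches was tested as an interaction. Named genes were 22 chosen by role, up to 3 called members with the largest rise and 3 with the largest fall in each comparison, and up to 2 and 2 of the wider pathway list; Nol11, Nol4l, Utp18 and the members that are only listed were named outside this rule. The members, the lists and this rule were chosen with earlier results of these data known. A list of 16 snoRNA host genes had none in the count table. Sequences are those of RefSeq (GRCm38.p6) and loci those of GENCODE M21.

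The alternatives tried were scaling by RLE factors, fitting without the low-count filter, all genes as deposited, terms for time and batch, each batch alone, a replicate block, leaving out the 5 libraries at 0 h with descriptions ending in "_ds" (meaning not given), leaving out 4 libraries together (0 h replicates 1 and 3, 4 h replicate 10, 8 h replicate 4), leaving out each batch 2 library after hCG, thinning to 241281 counts, DESeq2 1.42.0, and limma 3.58.1 on log2(TPM + 1) and log2(TPM + 0.1).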

Additional observations from a re-analysis of the deposited data

Results flagged for a closer look

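In groups of 9 or 10 follicles, 96 sets of values were checked for a follicle far from the rest, and 13 were flagged, where chance flags about 1 in 20. At 4 h in batch 1, replicate 10, the library with the lowest total count, was lowest for Bop1 (19.5 CPM from 5 counts, next lowest 33.2), Nol6 (7.79 CPM from 2 counts, next 30.6), Pes1 (42.8 CPM from 11 counts, next 62.9) and Rrp9 (19.5 CPM from 5 counts, next 48.6). Replicate 7 of the same group was highest for Nolc1 (154 CPM, next 114) and for the summed level of the 50 genes (7811 CPM, next 6462). At 1 h in batch 1, low values that rest on few counts were flagged for Pes1 in replicate 9 (9.78 CPM from 3 counts), Rrp15 and Wdr12 in replicate 8 (2.02 CPM each, from 1 count) and Polr1b and Utp14a in replicate 10 (0 CPM each, from 0 counts). At 0 h, Dkc1 was high in replicate 3 (42.6 CPM, next 28.1) and Nip7 in replicate 1 (41.2 CPM, next 22.3).

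The step from 1 h to 4 h differed between the batches for Nol12, by 2.42 on the log2 scale (batch 1 minus batch 2, adjusted p = 0.00945), and for Rrp15, by 1.87 (adjusted p = 0.0236), by the interaction term of the edgeR fit. The call of Nol12 was lost under 1 alternative and that of Rrp15 under 3.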

How the results depend on the processing

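The excess of members higher at 4 h and lower at 8 h was present under every alternative run, with counts that varied. Higher and lower members at 1 h against 0 h, 6 and 5, became 2 and 0 with the replicate block, 2 and 1 after thinning, 12 and 8 with limma on log2(TPM + 1) and 12 and 10 on log2(TPM + 0.1). Over all genes tested, 985 higher and 1496 lower of 8835 became 280 and 435 with the block. They became 433 and 399 of 3580 after thinning. On log2(TPM + 1) they became 1987 and 2053 of 11834, and on log2(TPM + 0.1) 1719 and 2378. The 6 members became 10 without the 4 libraries together, and the 5 became 1 with batch 2 alone and 2 without the _ds libraries. All genes called higher were 1184 of 8985 without the 4 libraries. Those called lower were 1154 of 9453 with batch 2 alone and 1358 of 9500 without the _ds libraries. Leaving out 1 library gave 2 to 7 higher and 3 to 5 lower members (621 to 834 and 1115 to 1302 of all genes). At 4 h against 0 h, 39 higher and 3 lower became 20 and 0 with the replicate block and 19 and 0 after thinning. All genes went from 1904 and 2141 to 618 and 696 with the block, and to 766 and 811 of 3580 after thinning. The 3 lower members became 1 with batch 2 alone, 1 without the _ds libraries, 0 on either TPM scale and 1 to 2 leaving out 1 library. All genes called lower were then 1987 of 9453, 2004 of 9500, 1791 and 1715 of 11834, and 1752 to 2138. At 4 h against 1 h in batch 2, 26 higher became 44 with terms for time and batch, which draw on both batches, and 15 after thinning. Over all genes, 1218 higher became 2483 with those terms and 438 of 3580 after thinning. The 1 lower member there became 0 without the filter, with batch 2 alone and after thinning, and 0 to 1 leaving out 1 library. All genes called lower went from 901 to 770 of 15724, 617 of 9453, 471 of 3580, and 719 to 924. At 4 h against 1 h in batch 1, 43 higher became 19 after thinning, and 1 was lower with terms for time and batch. Over all genes, 2378 higher became 1029 of 3580 after thinning, and 2276 were lower with those terms. After thinning, 34 lower at 8 h became 16, and 23 higher and 6 lower at 8 h against 1 h became 11 and 3. Of all genes, 1859 lower at 8 h than at 4 h became 800 of 3580. At 8 h against 1 h, 2306 higher and 2054 lower became 990 and 994. Thinning left 23 members tested, which bounds those counts. In the difference between batches, 2 higher became 5 without the 4 libraries, 4 on log2(TPM + 1), 0 after thinning and 1 to 3 leaving out 1 library, and 0 lower became 1 on log2(TPM + 1), 3 on log2(TPM + 0.1) and 0 to 4 leaving out 1 library. Over all genes, 185 higher became 244 of 8985, 271 of 11834, 76 of 3580 and 136 to 240. The 308 lower became 397 and 560 of 11834 and 224 to 381. The cause of the other shifts was not tested. Without 1 h replicate 11, 2 were higher at 1 h and 4 lower in the difference between batches; without 1 h replicate 13, 3 were lower at 1 h; without 4 h replicate 13, 1 was lower at 4 h against 0 h and 1 higher in the difference between batches.

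Of 130 calls of named members, 90 held under every alternative that gave a value. RLE factors moved the median log2 fold change of all genes at 4 h against 0 h from 0.03 to -0.07. Same-numbered libraries of different times had residual correlations of -0.20 to 0.23 over 33 pairs, 3 of them over 0.1 and 5 best with their own number. All 3 over 0.1 were between 4 h and 8 h in batch 1, where 3 of 10 were best with their own number. Low correlations cannot exclude a pairing, and the numbers were not used as pairs in the main fit. With the replicate block, Ltv1 at 4 h against 0 h changed sign (-0.0498, adjusted p = 0.987). In batch 2 no replicate number is shared by a follicle at 0 h and one at a later time. Between these times the block rests on same-numbered follicles of batch 1, so it cannot decide whether calls against 0 h hold. It is still counted among the alternatives under which calls were lost. Depth limits what can be called for low genes: libraries had 379640 to 765600 counts in batch 2 at 1 h, and as few as 241442 in batch 1 at 4 h and 302737 at 1 h.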
